A study of Arabidopsis thaliana with 22 samples.

Results

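In inflorescences of Arabidopsis thaliana, 55 regions of at least 400 bp carried trimethylation of histone H3 at lysine 4 (H3K4me3) in both libraries and lay outside every H3K4me3 island of the 6 libraries from leaves and apices. They lay in 54 of the 14893 regions of at least 400 bp marked in both inflorescence libraries and made up 0.382% of their length. Of the 55, 30 were such an inflorescence region as a whole and 25 a piece of one. The regions were chosen by their H3K4me3 islands: each was a run of adjacent 200-bp windows that lay within the authors' islands in inflorescence replicates 1 and 2 and within no island of the other 6 libraries. Over all 8 libraries, 17270 regions carried H3K4me3. The same rule turned to leaf found 464 regions. For the apices 288 were found, with islands required in every apex t0 and apex t2 library and in no leaf or inflorescence library.

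The study followed 2 histone marks through flowering by chromatin immunoprecipitation and sequencing (ChIP-seq) in 4 tissues with 2 biological replicates each. Leaf samples were taken from the rosettes of wild-type Ler plants that had begun to flower. Inflorescence samples were whole main inflorescences of wild-type Ler, with every flower past stage 12 discarded. Apex samples came from ap1 cal 35S::AP1-GR plants, whose inflorescences make masses of meristems resembling a cauliflower, collected before (apex t0) or 2 days after (apex t2) 10 µM dexamethasone. In that line the 35S promoter drives an AP1 protein fused to a hormone receptor domain broadly, and dexamethasone lets the fusion act. Both apex groups carry the ap1 and cal mutations and the transgene, which leaf and inflorescence lack, so a difference between inflorescence and apices is one of genotype as well as tissue and those cannot be told apart. Nor can the amount of chromatin, which was 10 µg per immunoprecipitation in leaf and inflorescence and 15 µg in the apices. Whole tissues were used, so fewer cells with a mark and less mark per cell cannot be told apart either, nor can 2 marks on the same DNA and 2 marks in different cells.

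H3K4me3 is found at the starts of transcribed genes. Trimethylation at lysine 27 (H3K27me3) is deposited by Polycomb proteins over the bodies of developmental genes that are kept silent, and in plants it commonly covers a whole gene. Several MADS-box floral genes, AG among them, are known Polycomb targets in leaves.

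Reads inside islands on the 5 nuclear chromosomes ran from 6635471 to 23673881 per H3K4me3 library and from 3779918 to 19379225 per H3K27me3 library. The inflorescence library with the fewest H3K27me3 reads was replicate 1. The median fold of an H3K4me3 island over its control was 5.07 in inflorescence replicate 1 and 2.82 in replicate 2. Per replicate, leaf and inflorescence islands shared 1 control, and the apices shared another.

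The 55 regions covered 61600 bp, with widths from 400 to 13200 bp and a median of 600 bp. The median was 1000 bp over all inflorescence H3K4me3 regions and 600 bp for both the leaf-only and the apex-only regions. At the edge of the rule, 17 regions were exactly 400 bp wide, and 68 further runs of a single 200-bp window fell just outside it. The islands holding the 17 had median folds of 2.73 and 1.74 in replicates 1 and 2, and those holding the 68 had medians of 3.31 and 2.06. Chromosomes 1 to 5 held 16, 4, 19, 6 and 10 regions. Protein-coding genes lay under 52 regions and numbered 52, since the region of AT2G08986 met a second gene, AT2G07981, and LUP2 held 2 regions. Of these genes, 21 have a symbol of their own in the RefSeq gene table.

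The regions were of 2 kinds. In 29 of them, here called separate, the inflorescence islands around the region met no H3K4me3 island of the other 6 libraries. In the other 26, called edge regions, at least 1 other library had an island within the same span, so that the region was a part of that span that those islands did not reach. In 25 of the 26 the region was a piece of an inflorescence region and touched such an island.

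**Figure D1:**
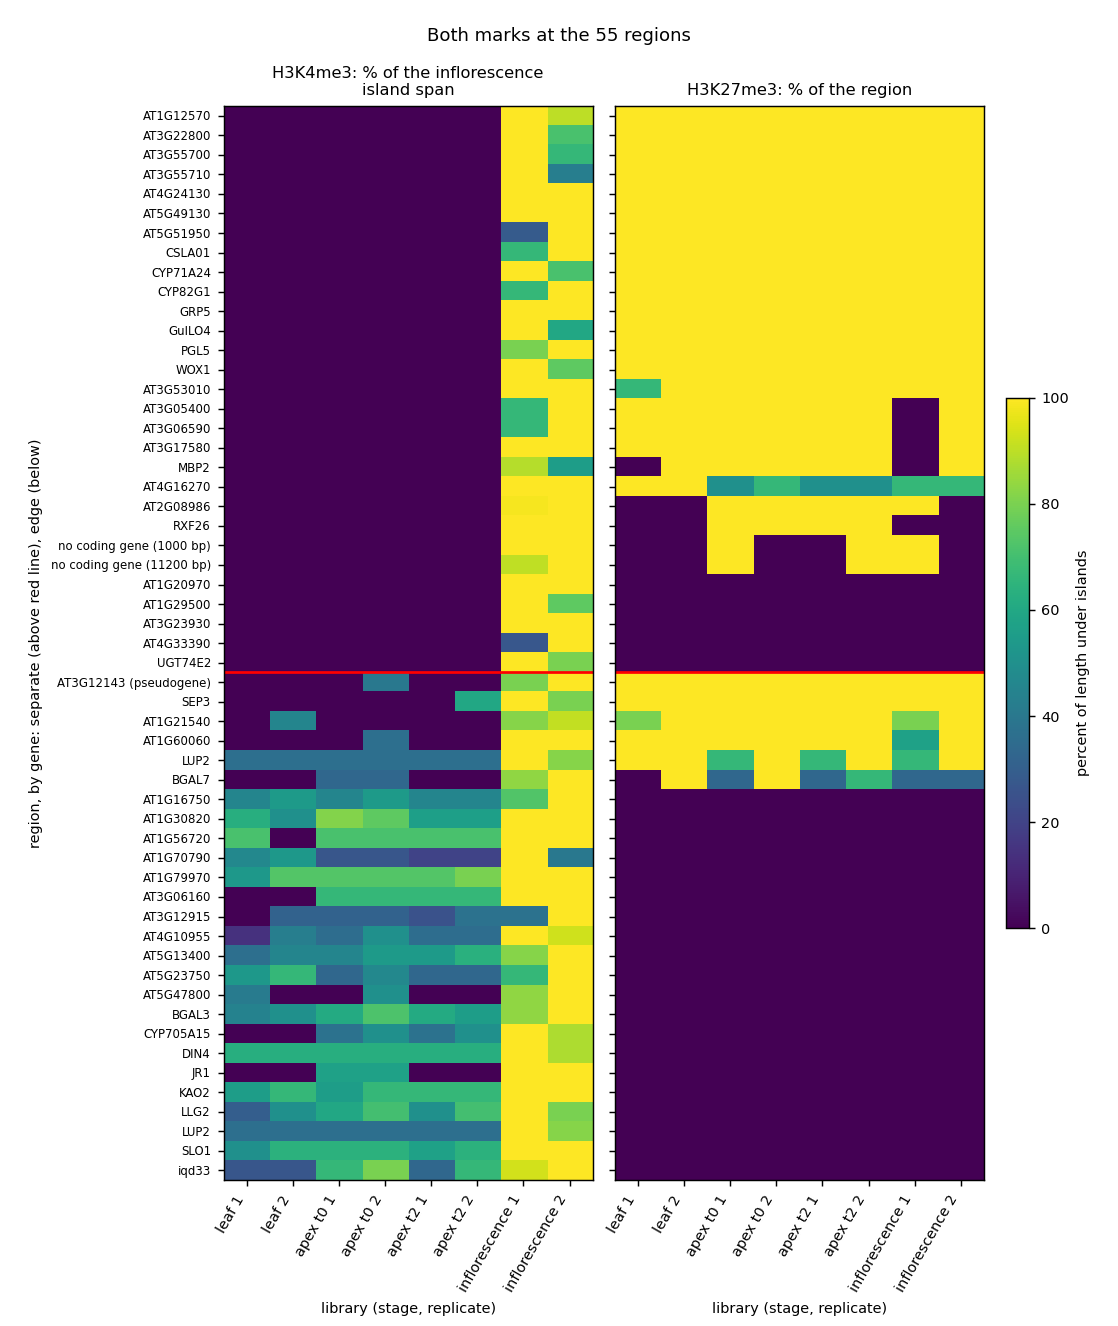
Percent of length under islands for 55 regions (rows, named by gene) in 8 libraries per mark (columns). The left panel shows H3K4me3 over the span of the inflorescence islands around each region and the right panel H3K27me3 over the region itself, with the 29 separate regions above the red line and the 26 edge regions below it. Separate rows are empty on the left outside inflorescence and mostly filled on the right.

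By their definition, separate regions lay apart from H3K4me3 islands of the other tissues. The nearest island of the 6 other libraries lay at a median of 2200 bp, between 600 and 90000 bp away, and 23 of the 29 had none within 1000 bp. For 25 of the 27 that lay on a gene, the whole gene had no H3K4me3 island in leaf or apices. The exceptions were AT1G20970 and AT3G06590, the second of which encodes an atypical basic helix-loop-helix protein also known as AIF2. AT3G06590 had H3K4me3 over 1400 and 1400 bp in leaf, 1600 and 1600 bp in apex t0, 1600 and 1400 bp in apex t2, and 1800 and 2000 bp in inflorescence replicates 1 and 2. There the inflorescence carried a second, detached island of the mark on a gene marked in every library.

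Genes on separate regions included 1 known regulator of organ shape and several enzymes. WOX1, a homeobox gene of leaf-blade and petal outgrowth, carried its region on chromosome 3 from 6162601 to 6163200 (TAIR10 coordinates, as for all regions here). H3K4me3 islands covered 800 and 600 bp of WOX1 in the inflorescence replicates and none of it in the other 6 libraries, at island folds of 1.92 and 1.63. Folds here are the authors' own values for each island. CYP82G1, a cytochrome P450 of volatile homoterpene synthesis, had 800 and 1200 bp in inflorescence and none elsewhere, at folds of 1.62 and 1.76. UGT74E2, which encodes a glucosyltransferase acting on the auxin precursor indole-3-butyric acid, had 1000 and 800 bp at folds of 1.48 and 1.58. MBP2, for a myrosinase-binding protein of the glucosinolate defence system, had 1600 and 1000 bp at folds of 2.99 and 1.67. All 4 genes were empty of H3K4me3 islands in leaf and apices.

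GRP5, for a glycine-rich cell-wall type protein, and CSLA01, of the cellulose synthase-like family of mannan synthases, had the highest lower fold of the replicates among separate regions on genes with a symbol. GRP5 had 600 bp of H3K4me3 in each inflorescence replicate, at folds of 2.46 and 1.87. CSLA01 had 800 and 600 bp, at 2.73 and 1.74. A neighbouring pair, AT3G55700 and AT3G55710, each carried a separate region on chromosome 3, from 20671201 to 20671600 and from 20673801 to 20674400. AT3G55700 had island folds of 3.67 and 2.05, and AT3G55710 of 2.28 and 1.57. Among the widest separate regions were 1800 bp on AT1G12570, at folds of 2.52 and 1.78, and 1600 bp on AT1G20970, at 1.49 and 1.51. Regions of 1200 bp each lay on RXF26 (folds of 1.69 and 1.34), AT4G16270 (1.445 and 1.255) and AT5G49130 (2.08 and 1.775). An annotated transcribed pseudogene overlaps AT4G16270 and a long non-coding RNA overlaps AT5G49130, and the mark cannot be assigned to one of the overlapping features.

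A further 3 separate regions differed from the rest in their control. A 13200-bp region on chromosome 2 from 3614801 to 3628000, over AT2G08986 and AT2G07981, had folds of only 1.18 and 1.22. A region of 11200 bp on chromosome 5 from 11726001 to 11737200 had folds of 1.18 and 1.16, and 1 of 1000 bp on chromosome 3 from 13586801 to 13587800 had 1.32 and 1.22. Neither of these 2 lay on a protein-coding gene. In the 3, control reads per kb were 4.66 to 5.51 times the median island in replicate 1 and 3.08 to 3.37 times in replicate 2, against 0.729 to 1.32 and 0.738 to 1.15 times in the other 52. Within 100 kb the RefSeq table lists 11, 1 and 5 coding genes beside 22, 36 and 41 pseudogenes, for the regions on chromosomes 2, 5 and 3. The part of the high control in these calls was not tested. Without the 3, 52 regions were left, 26 of them separate.

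**Figure D2:**
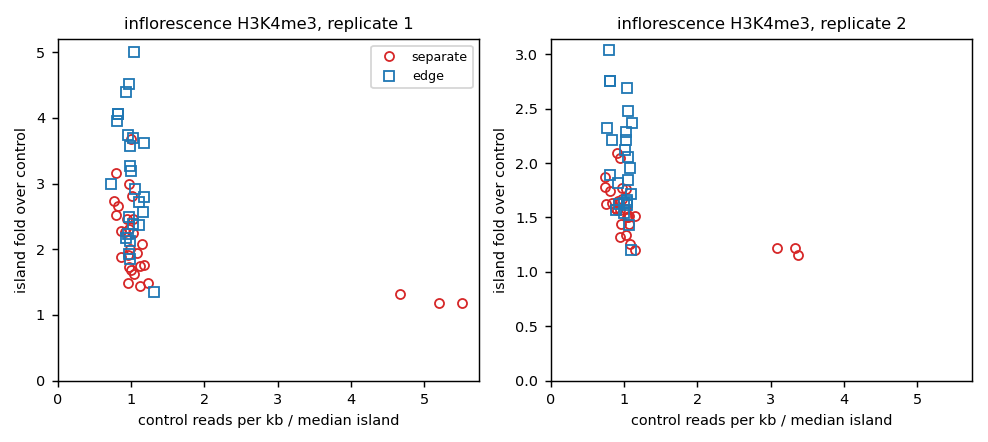
Island fold over control (vertical axis) against control reads per kb divided by that of the median island (horizontal axis) for the inflorescence H3K4me3 islands holding the 55 regions, 1 panel per replicate. Red circles are separate and blue squares edge regions. The 3 separate regions of high control stand at 4.66 to 5.51 (replicate 1) and 3.08 to 3.37 (replicate 2), at folds of 1.16 to 1.32.

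Edge regions were pieces of longer islands. The inflorescence islands around them spanned a median of 2200 bp, and islands of the other libraries covered a median of 36.4% (leaf replicate 1 and apex t2 replicate 1) to 52.3% (apex t0 replicate 2) of that span. In 15 of the 26 all 6 other libraries had an island there. In those 15, covered shares of the span had medians of 45.5% and 50% in leaf, 55.6% and 62.5% in apex t0 and 50% and 56.3% in apex t2, for replicates 1 and 2.

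SEP3, a MADS-box cofactor needed for the identity of petals, stamens and carpels, had the highest lower fold of the 2 replicates of all genes with a symbol. Its region lay on chromosome 1 from 8595401 to 8596000. H3K4me3 islands on SEP3 covered 2000 and 1600 bp in inflorescence, at folds of 3.95 and 3.04. They covered 1200 bp in apex t2 replicate 2 and nothing in apex t2 replicate 1, in apex t0 or in leaf. The single t2 library is why SEP3 counts as an edge region: the 1200 bp are shared with that library, and the 600 bp of the region are not.

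LUP2, a triterpene synthase gene, was marked over 800 bp in each of the 6 leaf and apex libraries and over 2200 and 1800 bp in inflorescence, at folds of 4.06 and 2.76. Its regions lay on chromosome 1 from 29696601 to 29697200 and from 29698001 to 29698400, either side of the shared stretch. DIN4, for a subunit of the branched-chain keto acid dehydrogenase, was marked over 836 bp in each of the 6 libraries and over 1436 and 1236 bp in inflorescence, at folds of 5.00 and 2.48. BGAL3, a beta-galactosidase gene, had 1600 and 1800 bp in leaf, 2200 and 2600 bp in apex t0, 2200 and 2000 bp in apex t2 and 3000 and 3600 bp in inflorescence. In each of these 3 genes the inflorescence stretches were the widest of the 4 tissues, which the rule that chose the regions makes likely. For KAO2, an enzyme of gibberellin synthesis widths were 613 and 813 bp in leaf, 613 and 813 bp in apex t0, 813 and 813 bp in apex t2, and 1413 and 1413 bp in inflorescence.

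SLO1, for a pentatricopeptide repeat protein of mitochondrial RNA editing, had 585 and 985 bp in leaf, 985 and 985 bp in apex t0, 785 and 985 bp in apex t2, and 1985 and 1985 bp in inflorescence. LLG2, for a LORELEI-like membrane-anchored protein, had at most 204 bp in leaf and apices and 804 and 604 bp in inflorescence. Its inflorescence islands reached beyond the gene, and leaf and apex islands covered 30% to 70% of their 2000-bp span. The calmodulin-binding family gene iqd33 had no island on the gene itself in leaf. It had 1059 and 1459 bp in apex t0, 59 and 1059 bp in apex t2, and 1859 and 2059 bp in inflorescence. Islands of both leaf libraries covered 26.7% of the 3000-bp span of the inflorescence islands around its region. CYP705A15, a cytochrome P450 gene overlapped by a transcribed pseudogene, had 1732 to 2532 bp in leaf and apices and 3332 and 3132 bp in inflorescence. The 4 edge regions of 1000 bp or more were 1400 bp on AT1G60060, 1200 bp on AT3G12915 and 1000 bp each on AT1G21540 and SLO1. Their island folds were 2.995 and 2.32, 1.34 and 1.20, 2.79 and 1.66, and 3.625 and 2.37, in that order. AT3G00300, annotated as a miscellaneous RNA, overlaps all of the region on AT3G12915. An edge region on chromosome 3 from 3872601 to 3873000 lay on a transcribed pseudogene, AT3G12143, and on no protein-coding gene.

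The islands carrying the 55 regions were weak for inflorescence H3K4me3. Their fold had a median of 2.38 (range 1.18 to 5.00) in replicate 1 and 1.64 (1.16 to 3.04) in replicate 2, beside medians of 5.12 and 2.85 over all inflorescence regions. The median percentile among all islands of the library was 6.53 in replicate 1 and 6.79 in replicate 2. Separate regions had medians of 2.01 and 1.57 and edge regions of 2.95 and 1.92. A fold of at least 2 was reached by 38 of 55 in replicate 1 and by 14 in replicate 2. Leaf-only regions had leaf island medians of 4.04 and 3.72, and apex-only regions had apex t0 island medians of 2.80 and 3.04. Apex t2 folds were not taken for that set. These folds belong to the measurement that chose the regions and are given without a test.

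**Figure D3:**
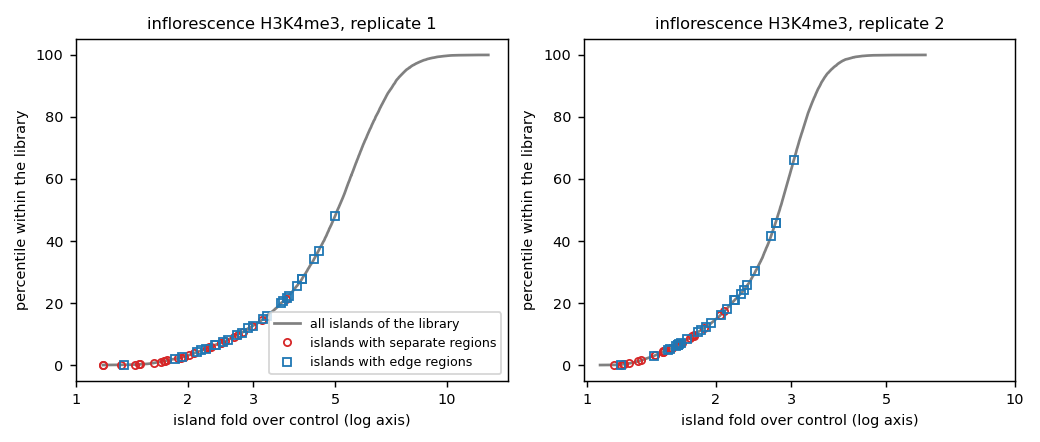
Percentile of an island's fold within its library (vertical axis, 0 to 100) against the fold over control (horizontal log axis), for inflorescence H3K4me3 replicates 1 and 2. The grey line is all islands, red circles hold separate and blue squares edge regions. Most marked points sit at the lower end of the curve, with medians of 2.38 in replicate 1 and 1.64 in replicate 2.

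H3K27me3 was not used to choose the regions. Islands of H3K27me3 covered at least 200 bp in both replicates on 24 of 55 regions for leaf, 28 for apex t0, 28 for apex t2 and 22 for inflorescence, that is 43.6%, 50.9%, 50.9% and 40%. Over all 14893 inflorescence H3K4me3 regions the shares were 6.45% for leaf, 8.79% for apex t0, 8.77% for apex t2 and 6.82% for inflorescence. For leaf-only regions they were 21.6%, 41.6%, 41.6% and 33.4%, and for apex-only regions 37.5%, 37.2%, 36.5% and 34.7%, in the same order. The shares are descriptions over regions that share libraries.

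The kinds differed in these counts. Of the 29 separate regions, 19 (leaf), 22 (apex t0), 22 (apex t2) and 16 (inflorescence) carried H3K27me3 in both replicates, and 16 did so in all 8 libraries. Of the 26 edge regions, 5, 6, 6 and 6 did, and 20 (76.9%) had no H3K27me3 island in any library, as against 5 separate regions (17.2%). Over all inflorescence H3K4me3 regions, 83% had none in any library and 4.67% carried H3K27me3 in all 8, so the edge share with none was near the general one. Without the 3 regions of high control, 19, 21, 21 and 16 of 26 separate regions carried it. The H3K27me3 islands over separate regions had median folds from 3.27 (inflorescence replicate 2) to 4.20 (leaf replicate 1), where medians over all islands of a library were 2.96 to 3.71.

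**Figure D4:**
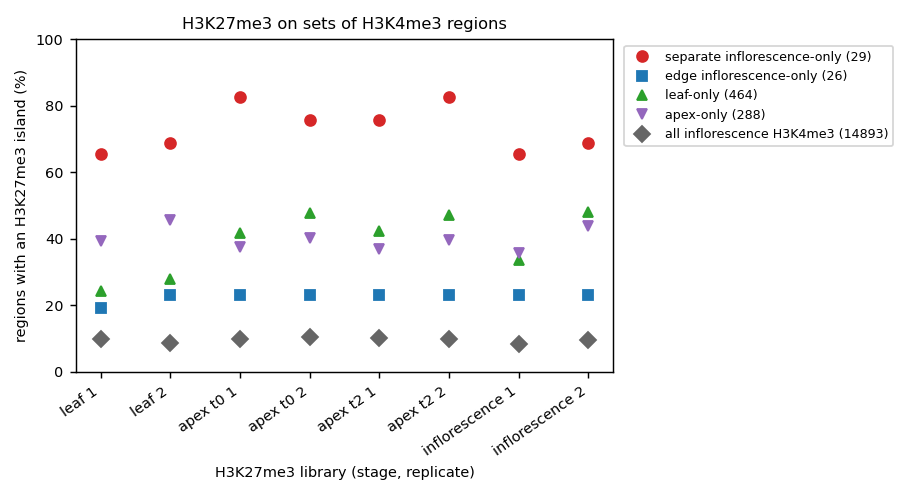
Percent of regions with an H3K27me3 island over at least 200 bp (vertical axis) in each of 8 H3K27me3 libraries (horizontal axis), for 5 sets of H3K4me3 regions. Separate inflorescence-only regions (red circles) stand at 65.5% to 82.8%, edge regions (blue squares) at 19.2% to 23.1%, and all inflorescence H3K4me3 regions (grey) at 8.37% to 10.3%.

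The 16 separate regions with H3K27me3 in all 8 libraries included those of WOX1, GRP5, CSLA01, CYP82G1, CYP71A24, PGL5, GulLO4, AT1G12570, AT4G16270 and both of the neighbours AT3G55700 and AT3G55710. The 5 with none were on UGT74E2, AT1G20970, AT1G29500 (an auxin-inducible SAUR gene, SAUR66 by synonym), AT3G23930 and AT4G33390. Among edge regions, the 5 with the mark in all 8 libraries were on SEP3, AT1G21540, AT1G60060, the pseudogene AT3G12143 and 1 of the LUP2 regions.

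No region carried H3K27me3 in both replicates of leaf, apex t0 and apex t2 while lacking it in both inflorescence replicates. That pattern was rare in general, with 10 of all 14893 inflorescence regions, 0 of 464 leaf-only and 0 of 288 apex-only regions. On 3 separate regions (AT3G05400, AT3G06590 and AT3G17580) the mark was absent from inflorescence replicate 1 alone, the H3K27me3 library with the fewest island reads. For AT3G05400 H3K27me3 amounted to 33 and 415 RPM in inflorescence. RPM are reads per 1000000 island reads assigned to the genes tested below, scaled between libraries. The part of depth in these 3 was not tested. On the 3 regions of high control, H3K27me3 islands appeared in apex libraries and in inflorescence replicate 1 and were absent from leaf and inflorescence replicate 2. AT2G08986 had none in leaf, 1325 and 1047 RPM in apex t0, 1050 and 1295 in apex t2, and 2961 and 0 in inflorescence.

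RXF26 was the single region with H3K27me3 in both replicates of both apex groups and in neither inflorescence replicate. The same pattern was held by 99 of all 14893 inflorescence regions, 4 of 464 leaf-only and 3 of 288 apex-only regions. Over the gene, RXF26 had 0 and 0 RPM in leaf, 82.7 and 97 in apex t0, 69.4 and 84.6 in apex t2, and 0 and 13.6 in inflorescence. Apex values lay above those of inflorescence, which the island pattern that singled out RXF26 makes likely, since RPM comes from the same islands. Leaf was low as well. With limma across all genes, where the adjusted p is Benjamini-Hochberg corrected, RXF26 did not pass in inflorescence against apex t0 (adjusted p = 0.312) or apex t2 (adjusted p = 0.366). MBP2 had 0 and 120 RPM in leaf, 104 and 147 in apex t0, 93.7 and 121 in apex t2, and 0 and 31.7 in inflorescence. Inflorescence lay below both apex groups in MBP2, and leaf replicate 2 lay within their range. It did not pass either (adjusted p = 0.767 against apex t0 and 0.755 against apex t2).

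The H3K27me3 level per gene was tested between inflorescence and each other tissue over 8621 genes, among them 28 of the 52 genes on the regions. The other 24 were not marked in both replicates of any tissue and were not tested. Against leaf, 5.15% of all genes passed, 306 (3.55%) higher and 138 (1.6%) lower in inflorescence, and 1 of the 28 passed, lower. Against apex t0, 3.4% of all genes passed, 142 (1.65%) higher and 151 (1.75%) lower, and 1 of the 28 passed, lower. Against apex t2, 3.27% passed, 137 (1.59%) higher and 145 (1.68%) lower, and 0 of the 28 did. In limma at an unadjusted p under 0.05 the 28 gave 3, 4 and 4 genes (10.7%, 14.3% and 14.3%), beside 11.8%, 8.84% and 8.82% of all genes tested. The median log2 fold change of the 28 was -0.09 against leaf, -0.27 against apex t0 and -0.33 against apex t2. Over all genes tested it was 0.06, -0.02 and -0.02. A gene marked in both replicates of the apices alone, such as RXF26, enters these medians through the filter. For the 22 marked in all 8 libraries the medians were -0.09, -0.16 and -0.14, beside 0.03, 0.01 and 0.01 over the 5885 genes so marked. Shares of 1 in 28 and 0 in 28 are near those of all genes.

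AT4G16270 was the gene lower in inflorescence than in leaf. Its H3K27me3 was 135 and 123 RPM in leaf and 59.1 and 71.5 in inflorescence, with 60.3 and 67.6 in apex t0 and 61.3 and 49.1 in apex t2. Leaf stood above all 6 other libraries. The log2 fold change was -0.98 (SE 0.18, limma adjusted p = 0.0477). With the replicate number as a block the adjusted p was 0.0913, and the call ended in 7 of the 8 fits that each left out 1 library (adjusted p up to 0.171), all except the fit without inflorescence replicate 2.

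GulLO4, of the gulonolactone oxidase family, was the gene lower in inflorescence than in apex t0. It had 79.2 and 104 RPM in leaf, 176 and 188 in apex t0, 163 and 161 in apex t2, and 93.2 and 78.8 in inflorescence. Both apex groups stood above leaf and inflorescence without overlap. The log2 fold change against apex t0 was -1.07 (SE 0.17, limma adjusted p = 0.034) and against apex t2 -0.91 (adjusted p = 0.0694). The apex t0 call ended with the replicate block (adjusted p = 0.0727) and in 6 of the 8 fits that left out 1 library (adjusted p up to 0.245), all except those without a leaf library.

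SEP3 had 413 and 271 RPM of H3K27me3 in leaf, 370 and 322 in apex t0, 301 and 285 in apex t2, and 147 and 201 in inflorescence. The inflorescence values were the lowest and did not overlap those of the other tissues. The log2 fold change was -0.95 (SE 0.25) against leaf, -0.998 (SE 0.25) against apex t0 and -0.76 (SE 0.25) against apex t2, and none passed the test (limma adjusted p = 0.168, 0.212 and 0.427). Over 15 alternative fits, the log2 fold change of SEP3 against leaf ran from -1.28 (without leaf replicate 2) to -0.66 (without leaf replicate 1). Of these fits 14 did not pass, and the exception, without leaf replicate 2, had 1 leaf library left. H3K27me3 islands still covered 100% of the gene in inflorescence replicate 1 and 97.5% in replicate 2, as they covered all of it in the other 6 libraries. WOX1 had 320 and 296 RPM in leaf, 355 and 351 in apex t0, 363 and 342 in apex t2, and 265 and 291 in inflorescence. Its inflorescence values were the lowest, by 0.15, 0.34 and 0.34 on the log2 scale against leaf, apex t0 and apex t2 (log2 fold changes -0.15, -0.34 and -0.34), and none passed (limma adjusted p = 0.564, 0.24 and 0.256).

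**Figure D5:**
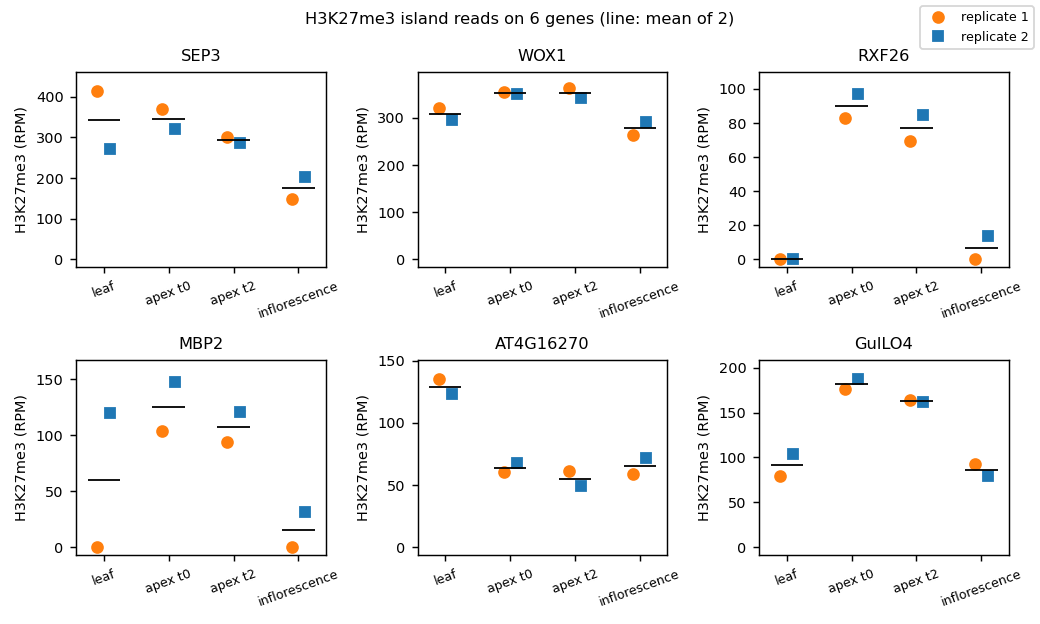
H3K27me3 (vertical axis, RPM) in 4 tissues (horizontal axis) on 6 genes. Circles are replicate 1, squares replicate 2 and lines the mean of the 2. SEP3 stands at 413 and 271 RPM in leaf and at 147 and 201 in inflorescence (replicates 1 and 2), and leaf stands above the other tissues in AT4G16270.

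Of 194 genes in 13 lists of flower, organ and other tissue markers, only SEP3 lay on one of the 55 regions. None of the 194 had H3K4me3 in both inflorescence libraries and in no other library. Among 15 floral organ identity genes, H3K4me3 islands were present in both replicates on 2 for leaf, 5 for apex t0, 9 for apex t2 and 8 for inflorescence. AP3 and SEP1, the first for petal and stamen identity and the second a MADS-box cofactor, carried H3K4me3 in both apex t2 and both inflorescence libraries and in no leaf or apex t0 library. AG, the carpel and stamen identity gene, had it in inflorescence replicate 2 alone, over 800 bp.

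None of the 8 lists for later floral tissues and products had more H3K4me3-marked genes in inflorescence than in the higher of the apex groups. Counts over the lists required both replicates. Inflorescence replicate 1 had 8461110 H3K4me3 island reads, below the 10707862 to 22051140 of the apex libraries. The part of depth in these counts was not tested. Of 25 tapetum and pollen wall genes, 3, 5, 7 and 4 had H3K4me3 in both replicates of leaf, apex t0, apex t2 and inflorescence. Of 18 male gametophyte genes the counts were 2, 4, 4 and 2, and of 21 meiosis genes 11, 20, 20 and 19. Carpel, ovule and style genes gave 9, 10, 11 and 11 of 23, petal and stamen growth genes 5, 8, 8 and 6 of 16, nectary genes 3, 4, 4 and 3 of 6, gibberellin oxidases 3, 5, 6 and 2 of 11, and cuticle, pigment and scent genes 6, 10, 9 and 10 of 14. Of the lists for other tissues, leaf photosynthesis genes gave 12, 12, 11 and 12 of 12, shoot meristem genes 5, 10, 10 and 9 of 12, root genes 2, 2, 2 and 2 of 10, and seed and embryo genes 0, 0, 0 and 0 of 12. All 12 seed genes carried H3K27me3 in both replicates of each tissue. Leaf photosynthesis genes were thus marked with H3K4me3 in inflorescence as in leaf, and no seed gene was.

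The number of regions depended on how islands were required. With apex t2 islands allowed it was 67, with islands of both apex groups allowed 635, and with leaf islands allowed 316. Without inflorescence replicate 1 it was 292, without inflorescence replicate 2 it was 194, and without leaf replicate 2 it was 91. Requiring a fold of at least 2 in the inflorescence islands left 14.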

How the data were processed

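ChIP-seq islands of 16 libraries (4 tissues, 2 marks, 2 replicates) were used. Per the submitters' processing notes the tools named are SICER 1.1, bedtools 2.17.0-97, Picard 1.93, BWA 0.6.2-r126, CASAVA 1.8.2 and SAMtools 0.1.19, and the build is TAIR10. The window and gap settings are not given in the sources used here. The deposited tables hold, per island, ChIP and control read counts, a p-value, a fold over control and an adjusted p-value of the authors. All islands had an adjusted p below 0.0001. They were called per library. Input samples were not analysed here except through the control column.

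Per the labels' protocols, replicate 2 differed from replicate 1 in antibody lot, sonication, library kit and sequencer, and pooled several immunoprecipitations, so a replicate number marks a batch. In H3K27me3, deviations from the tissue means correlated at r = 0.155 to 0.448 across genes between same-numbered libraries, over 6 pairs of tissues. Each p-value measures the spread between the 2 biological replicates of a tissue, pooled over the tissues and drawn toward that of other genes. Without the block, that spread holds batch and biological differences together.

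Members and gene lists were chosen with earlier results of these data known. H3K4me3 chose the regions and is described without a test. H3K27me3 island reads were assigned to gene bodies by overlap, taking reads as even along an island. They were scaled by a trimmed mean (30% of log ratios and 5% of mean levels trimmed) to reads per 1000000 (RPM) and tested as log2(RPM + 1), a scale that understates changes of low genes, with limma 3.58.1 (trend, robust, two-sided) in R 4.3.3. A gene was tested if marked in both replicates of a tissue, and passed at an adjusted p under 0.05. All 8 libraries entered, with 4 residual degrees of freedom. Regions and overlaps were computed in Python 3.11.15. Gene names came from the RefSeq table of assembly TAIR10.1 and only their positions on the same chromosomes were used. Inflorescence H3K4me3 windows overlapped its protein-coding genes best at no offset in 111 of 111 bins of 1 Mb.

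Named genes were list members on regions, the 10 genes with a symbol and the highest lower fold, the 10 widest regions, genes passing the H3K27me3 test and regions off genes. All other genes, KAO2, WOX1, MBP2 and AP3 among them, were named after their values were seen. Gene starts and promoter motifs were not analysed here. Of 197 listed symbols, 194 matched a gene.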

Additional observations from a re-analysis of the deposited data

Results flagged for a closer look

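Outside the nuclear chromosomes, the inflorescence H3K4me3 library of replicate 2 held 1 island on the chloroplast chromosome, with 288494 ChIP reads and a fold of 1.21 over control. It was the 1 island outside the nuclear chromosomes among the 16 libraries, and it entered none of the comparisons above.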

How the results depend on the processing

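The count of 55 regions was 52 when the 3 regions of high control were left out (chosen after seeing the data). It was 14 with islands of fold 2 or more in inflorescence, 19 with that limit in every file, 123 at a minimum width of 200 bp and 15 at 1000 bp. Allowing islands of both apex groups gave 635 and of leaf 316 (chosen after seeing the data). Leaving out 1 library drops a requirement, so it can only add windows, and it gave 55 to 292 regions. For the replicate block, libraries of replicate 1 alone gave 403 and of replicate 2 alone 333. H3K27me3 in both replicates was found on 7, 8, 8 and 7 regions (leaf, apex t0, apex t2, inflorescence) with island fold 2 in every file and on 7, 9, 9 and 7 at 1000 bp or more. With 1 replicate of the tissue left out, the other alone marked 24 to 26, 28 to 30, 28 to 30 and 25 to 26 regions. Such counts cannot fall below those for both replicates. For genes on regions passing the H3K27me3 test, the replicate block gave 0 against leaf and 0 against apex t0, and pseudocount 4 RPM gave 0 against leaf. No filter gave 0 against leaf and 0 against apex t0. Islands of fold 2 gave 2 against apex t0 and 1 against apex t2, and 500 bp on both sides of the gene gave 0 against leaf and 1 against apex t2 (chosen after seeing the data, since the planned 500 bp before the gene start was not run for lack of strand). Leaving out 1 library gave 0 to 10, 0 to 9 and 0 to 9 against leaf, apex t0 and apex t2, the highest all without inflorescence replicate 2. Over all genes, no filter gave 115 against apex t0 and 112 against apex t2. With the replicate block 437, 303 and 293 genes passed. Leaving out 1 library gave 382 to 1274 against leaf (highest without leaf replicate 2), 0 to 982 against apex t0 and 0 to 981 against apex t2. The 0 arose without apex t0 replicate 2 in the first and without either apex t2 library in the second, the 982 and 981 without inflorescence replicate 2, where 27.9% and 28.3% of passing genes were higher in inflorescence. Against leaf that share was 46.1% without inflorescence replicate 2 and 68.9% with all libraries. The cause of these changes was not tested. No value of a gene named with a fold change turned its sign under these alternatives.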
